A study of Caenorhabditis elegans with 11 samples.

Results

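The genome of the mitochondrion is a small circular DNA that is kept in the organelle, apart from the chromosomes of the nucleus. This report describes its genes in total RNA, monosome RNA and polysome RNA of adult *Caenorhabditis elegans* with and without silencing of *xpo-1*. A gene was counted as a member when its chromosome entry in the count tables was MtDNA, which held for 34 of 46756 genes. These were 12 protein-coding genes and 22 tRNA genes, and 2 rRNA genes that the annotation places on MtDNA were not analysed here. A gene was described when it had at least 10 counts in at least 2 of the 11 libraries. All 12 protein-coding genes passed this minimum and 0 of the 22 tRNA genes did, against 15366 of 46722 nuclear genes. The 22 tRNA genes together had 0 to 22 counts per library and no tRNA gene exceeded 5 counts in any library, so nothing further is said of them.

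The 12 genes encode core subunits of the respiratory chain and of the ATP synthase, the machines of the inner mitochondrial membrane that turn the energy of food into ATP. Complex I passes electrons from NADH to ubiquinone, complex III passes them on to cytochrome c, complex IV hands them to oxygen, and the ATP synthase uses the resulting proton gradient to make ATP. Most subunits of these complexes are encoded in the nucleus, made on cytosolic ribosomes and imported, whereas the mRNAs of the mitochondrial genome are translated inside the organelle by its own ribosomes.

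All groups were wild-type N2 (Bristol) nematodes, which were moved on day 1 of adulthood to RNAi bacteria and collected on day 5 after 96 hours at 20°C. The *xpo-1* RNAi groups ate *E. coli* HT115 producing dsRNA against *xpo-1*, which encodes the nuclear export receptor exportin 1, and the control groups ate HT115 carrying only the vector L4440. *xpo-1* RNAi was represented by 2 total, 1 monosome and 2 polysome libraries and control by 2 libraries of each kind, where monosome RNA comes from the part of a sucrose gradient that holds single ribosomes and polysome RNA from the part that holds several ribosomes per mRNA. Whole animals were lysed, so that fewer cells of a type and less RNA per cell cannot be told apart.

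The libraries held 15589628 to 21828657 counts each. The targeted gene *xpo-1* stood at 35.8 and 41.7 CPM (counts scaled to 1e6 counts per library) in *xpo-1* RNAi total RNA, against 270 and 215 CPM in control total RNA, and was likewise lower in every *xpo-1* RNAi library of the fractions (44.5 CPM in monosome RNA, 26.4 and 25.4 CPM in polysome RNA) than in the control libraries (282 and 349 CPM in monosome RNA, 183 and 120 CPM in polysome RNA). Sperm markers, 33 genes of which 0 to 4 were at 0 in a library, summed to 15.2 to 29.5 CPM in the 5 *xpo-1* RNAi libraries, against 110 to 3640 CPM in the 6 control libraries, and in each control RNA kind replicate 2 was the higher. All markers of germline and oocyte (11 genes), body wall muscle (7), intestine (5) and neurons (5) had at least 10 counts in each library.

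The share of all counts that came from the mitochondrial genome differed most between the RNA kinds. In total RNA the share was 0.662% and 0.656% in *xpo-1* RNAi, against 0.677% and 0.677% in control. In monosome RNA the share was 0.477% (95% Wilson interval 0.474 to 0.480%, counting error only) in the single *xpo-1* RNAi library, against 3.64% and 3.10% in control. In polysome RNA the share was 0.0909% and 0.139% in *xpo-1* RNAi, against 0.0969% and 0.231% in control. Thus the *xpo-1* RNAi monosome library lay 7.07-fold below the control monosome mean, the ratio of mean shares in total RNA was 0.974, and the polysome groups overlapped. The 2 control polysome libraries differed more than any other pair of replicates, and without control polysome replicate 2 the ratio of *xpo-1* RNAi to control polysome share was 1.18 in place of 0.700.

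**Figure D1:**
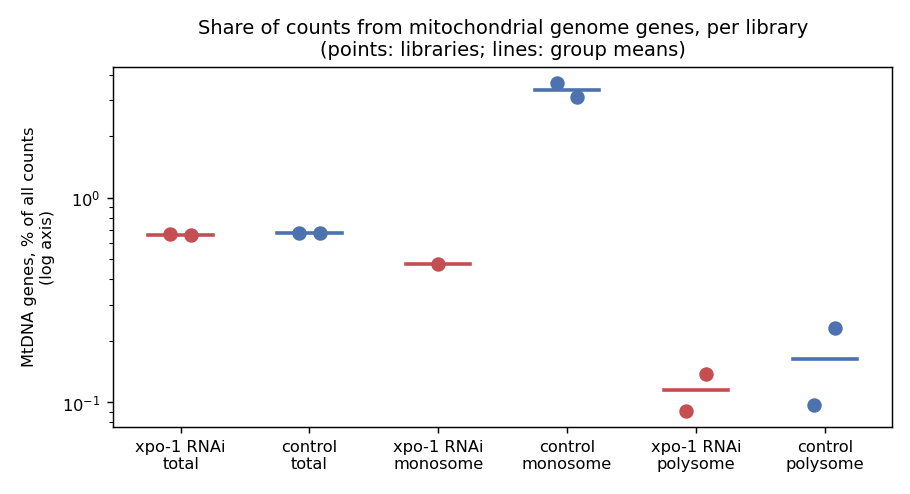
Counts from genes of the mitochondrial genome as a percentage of all counts, on a log axis, for each of the 11 libraries (points) with the group mean (lines). The 2 control monosome libraries, at 3.64% and 3.10%, stand above all others, and the *xpo-1* RNAi monosome library lies at 0.477%.

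Levels per gene length (CPM per kilobase) set the 12 genes apart into well and weakly represented ones. In control total RNA, *COX3* stood at 1266 ± 66, *COX1* at 1242 ± 16, *CYTB* at 1236 ± 68 and *ATP6* at 1168 ± 28 (SD, n = 2 each), and the libraries of the first 3 overlapped. *COX2* followed at 972 ± 7.7 and *ND1* at 531 ± 0.54, and the other 6 complex I genes lay between 194 ± 13 for *ND4* and 16.3 ± 1.8 for *ND4L*. In *xpo-1* RNAi total RNA the order began with *COX3* at 1814 ± 61 and *COX1* at 1423 ± 3.8, and *ND4L* was again last at 13.5 ± 0.62. Thus the 3 genes of complex IV, *CYTB* and *ATP6* stood above every complex I gene in both groups. The same held in both ribosomal fractions: in the *xpo-1* RNAi monosome library these 5 genes stood at 697 to 1267 and the complex I genes at 6.85 to 216, and in control monosome RNA the means were 5763 to 7507 against 34.5 to 1601.

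In control monosomes the best represented of these mRNAs were among the foremost of the whole transcriptome. Ranked per gene length among all genes, *ATP6*, which encodes a subunit of the proton channel of the ATP synthase, was 194th in the *xpo-1* RNAi monosome library, against 3rd in both control monosome libraries. *CYTB*, the cytochrome b of complex III, was 198th in the *xpo-1* RNAi monosome library, against 5th and 4th in the control ones. In total RNA the same 2 genes ranked 159th to 181st in *xpo-1* RNAi and 139th to 160th in control.

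All 12 genes lie on the plus strand of MtDNA (assembly WBcel235) and are closely packed. *ND6* (113 to 549) and *ND4L* (549 to 783) share a base, as do *ND3* (11356 to 11691) and *ND5* (11691 to 13272), and *ND1* (1763 to 2635) overlaps *ATP6* (2634 to 3235) by 2 bases. *ND2* (3389 to 4269) overlaps a tRNA gene by 28 bases at its start and *COX1* (7827 to 9428) one by 7 bases at its end. *ND2*, *CYTB* (4504 to 5621) and *COX2* (9649 to 10348) each share their last base with a tRNA gene, *COX3* (5678 to 6449) adjoins one, and *ND4* (6506 to 7808) overlaps no other gene. How reads over such borders were assigned was not stated, so counts of adjoining genes may hold reads of each other.

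The first question was how these mRNAs changed in total RNA with *xpo-1* silencing. Of the 12 genes, 6 fell and 0 rose (edgeR quasi-likelihood test, adjusted p under 0.05 and a fold over 1.5, TMM scaling), where 16.9% of the 13795 genes tested were called lower and 12% higher. The 6 were *ND1*, *ND2*, *ND3* and *ND4* of complex I, *CYTB* and *ATP6*. The median log2 fold change over the 12 genes was -0.59, against 0.0056 over all genes tested.

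Complex I is represented by 7 genes of membrane-arm subunits. *ND2* had 44.9 and 42.8 CPM in *xpo-1* RNAi, against 75.9 and 80.9 CPM in control, a log2 fold change of -1.13 ± 0.17 (standard error; edgeR adjusted p = 0.00110). *ND4* had 177 and 146 CPM in *xpo-1* RNAi, against 241 and 264 CPM in control, a log2 fold change of -0.93 ± 0.19 (edgeR adjusted p = 0.00506). By CPM the groups did not overlap for these genes, nor for the uncalled *ND6*, *ND4L* and *COX2*, so this alone did not set *ND2* and *ND4* apart. After TMM scaling the uncalled *ND5* and *COX1* were also lower without overlap. The share of all genes lower in this way is not given here. *ND3* had 33.7 and 23.7 CPM in *xpo-1* RNAi, against 40.5 and 44.9 CPM in control (-0.85 ± 0.23, edgeR adjusted p = 0.0183). *ND1* had 374 and 352 CPM in *xpo-1* RNAi, against 464 and 464 CPM in control (-0.64 ± 0.18, edgeR adjusted p = 0.0202). The other 3 genes were not called. *ND5* had 173 and 166 CPM in *xpo-1* RNAi, against 183 and 169 CPM in control (-0.34 ± 0.16, edgeR adjusted p = 0.139). *ND6* (-0.52 ± 0.22, edgeR adjusted p = 0.0975) and *ND4L* (-0.57 ± 0.31, edgeR adjusted p = 0.185) were not called either, *ND4L* with 57 and 68 counts in *xpo-1* RNAi and 65 and 90 counts in control.

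Among the other genes, *CYTB* had 1004 and 976 CPM in *xpo-1* RNAi, against 1329 and 1436 CPM in control, a log2 fold change of -0.77 ± 0.19 (edgeR adjusted p = 0.0137). *ATP6* had 564 and 558 CPM in *xpo-1* RNAi, against 715 and 691 CPM in control (-0.61 ± 0.18, edgeR adjusted p = 0.0255). The 3 genes of complex IV, whose products form its catalytic core, were not called. *COX2* had 585 and 569 CPM in *xpo-1* RNAi, against 676 and 684 CPM in control, and its log2 fold change of -0.53 ± 0.18 passed the adjusted p (edgeR, 0.0483) but not the fold. *COX1* had 2284 and 2275 CPM in *xpo-1* RNAi, against 2008 and 1972 CPM in control, and its log2 fold change was -0.091 ± 0.20 (edgeR adjusted p = 0.763) after TMM scaling and 0.20 by total counts. *COX3* had 1367 and 1434 CPM in *xpo-1* RNAi, against 1014 and 941 CPM in control (0.23 ± 0.19, edgeR adjusted p = 0.376), the only one of the 12 with a positive value under TMM scaling, where both *xpo-1* RNAi libraries lay above both control libraries, as for 34.6% of all genes.

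These calls depended on single libraries, as did those over all genes. Without *xpo-1* RNAi total replicate 2 the median log2 fold change over the 12 genes was -0.53, against -0.033 over all genes, and *ND2* was at -1.02. Without *xpo-1* RNAi total replicate 1 this median was -0.71, against -0.019 over all genes. It was -0.67 without control total replicate 1 and -0.59 without control total replicate 2, against 0.0078 and 0.029 over all genes. With scaling by total counts, 2 genes (*ND2* and *ND4*) were called lower, where 1647 of 13795 genes were, in place of 2337. Body wall muscle markers summed to 1737 and 2119.5 CPM in *xpo-1* RNAi total RNA, against 2060.0 and 3716 CPM in control, which overlap. Of these 7 genes 5 were called lower, where 16.9% of all genes were, and sperm markers were lower as given above. Intestine markers summed to 313 and 337 CPM, against 415 and 777 CPM in control. Neuron markers were at 471 and 490 CPM, against 345 and 312 CPM, and germline and oocyte markers at 11817 and 12132 CPM, against 11520 and 9514 CPM. Their part in the result was not tested.

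**Figure D2:**
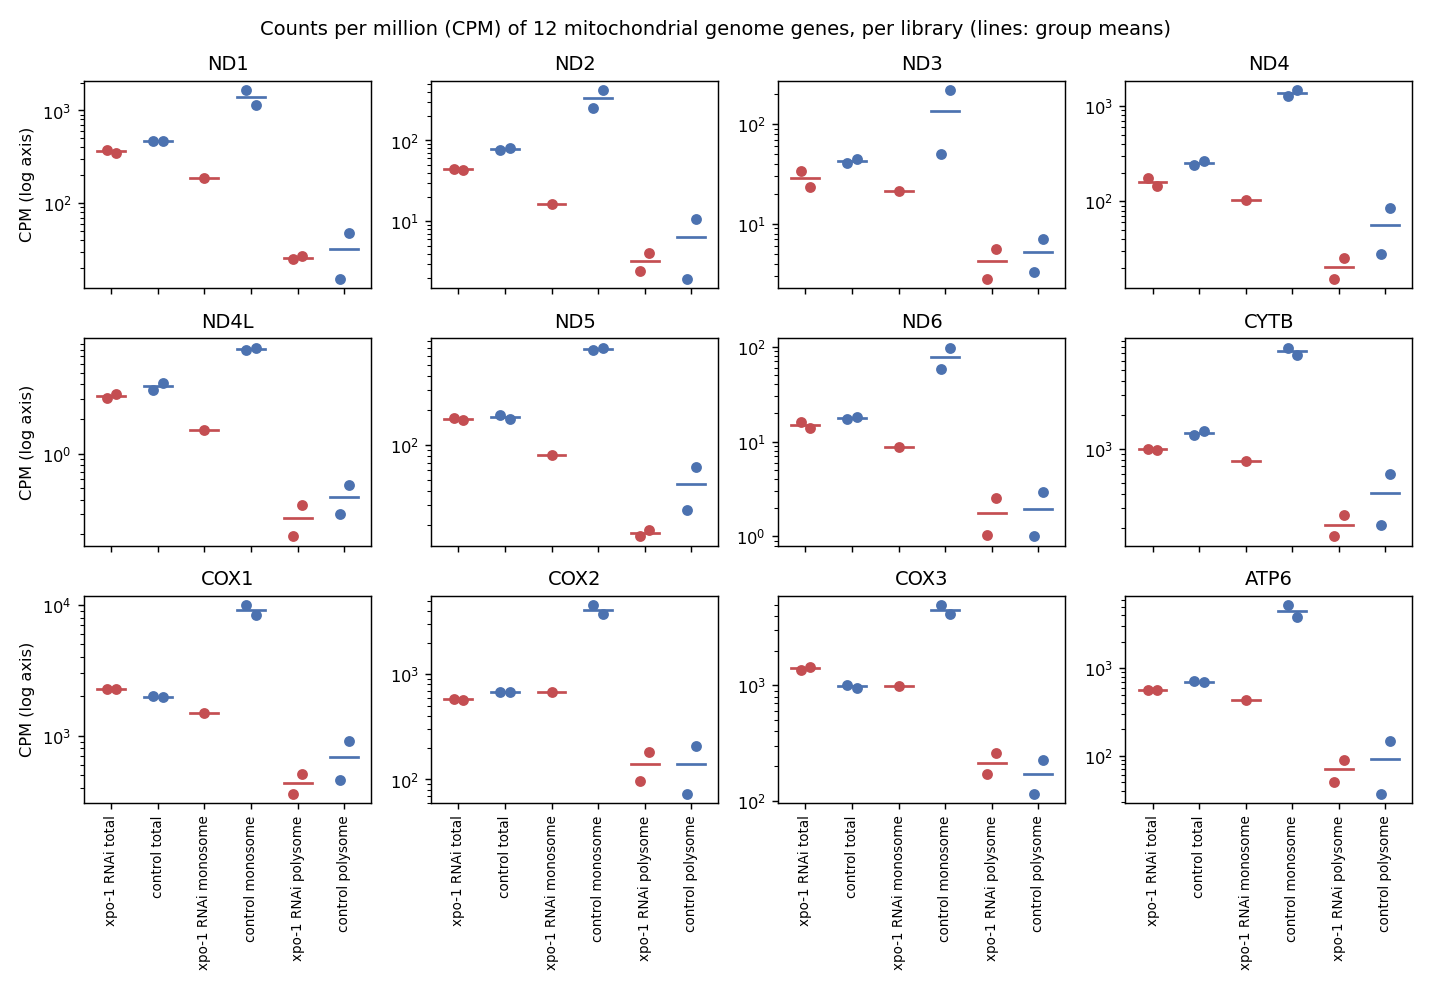
CPM of each of the 12 genes (log axes) in every library (points), with group means (lines), for total, monosome and polysome RNA. In each panel the control monosome libraries are highest, while the total RNA groups lie close together.

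The makeup of the mitochondrial counts, which does not depend on how libraries are scaled, also differed with silencing. *COX3* made up 20.6% and 21.9% of the mitochondrial counts in *xpo-1* RNAi total RNA, against 14.98% and 13.9% in control total RNA. It made up 20.5% in the *xpo-1* RNAi monosome library, against 13.5% and 13.3% in control, and 18.6% and 18.8% in *xpo-1* RNAi polysomes, against 11.9% and 9.85% in control. *COX3* was thus higher in every *xpo-1* RNAi library than in every control library of the same RNA kind, and it was the only one of the 12 genes of which that held in all 3 kinds. *CYTB* and *ND4* were lower in this way in all 3 kinds. *CYTB* made up 15.2% and 14.9% in *xpo-1* RNAi total RNA against 19.6% and 21.2% in control, 16.3% in *xpo-1* RNAi monosome RNA against 21.4% and 21.96% in control, and 18.6% and 18.7% in *xpo-1* RNAi polysome RNA against 21.9% and 25.8% in control. *ND4* made up 2.66% and 2.22% in *xpo-1* RNAi total RNA, against 3.55% and 3.90% in control. In total RNA the 3 complex IV genes together took 64.6% of the mitochondrial counts with *xpo-1* RNAi and 53.9% in control (means of 2 libraries). The 7 complex I genes took 11.9% with *xpo-1* RNAi and 15.3% in control. These shares sum to 100% in a library, so the genes are not independent of each other, and the differences are described without a test.

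**Figure D3:**
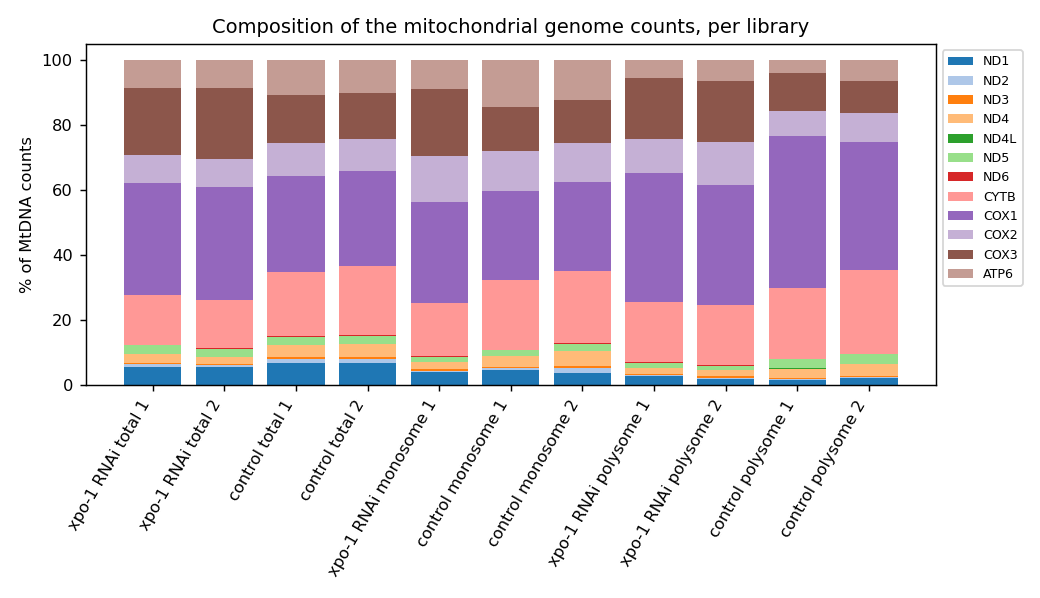
Makeup of the mitochondrial counts in each library, as stacked percentages of the 12 genes. The band of *COX3* is wider in the *xpo-1* RNAi libraries (18.6 to 21.9%) than in the control libraries (9.85 to 14.98%), and that of *CYTB* is narrower within each RNA kind.

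Next, polysome RNA was compared with total RNA and monosome RNA within control animals, to learn where these mRNAs lay in the gradient. All 12 genes were lower in polysome than in total RNA (edgeR, with 7.56% of 14080 genes called lower), by log2 fold changes of -3.98 ± 0.49 for *ND1* to -1.65 ± 0.28 for *COX1*, with a median of -2.83 against 0.12 over all genes. *ND4L* had 6 and 9 counts in polysome RNA and passed the count minimum only through the other RNA kind, so that its call here and in the next comparisons was set by the filter. *COX1*, the catalytic subunit of complex IV, had 454 and 908 CPM in control polysome RNA, against 2008 and 1972 CPM in control total RNA. *CYTB* had 212 and 596 CPM in control polysome RNA, against 1329 and 1436 CPM in control total RNA (-1.88 ± 0.39, edgeR adjusted p = 0.0253). *ND1* had 15.3 and 48.2 CPM in control polysome RNA, against 464 and 464 CPM in control total RNA. The libraries of the 2 RNA kinds were thus apart for these genes, which is described here without the share of all genes apart in that way. Without control total replicate 1 the test called 0 of 11 genes (edgeR adjusted p of 0.151 to 0.157) and 0 of all genes in the series, 11 of the 11 still having an unadjusted p under 0.05, and without control total replicate 2 it called 9 of 11.

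The gap between polysome and monosome RNA in control animals was wider. All 12 genes were lower in polysome RNA (edgeR adjusted p of 0.00234 to 0.00436, with 18.3% of 14510 genes called lower), with log2 fold changes of -5.60 ± 0.72 for *ND2* to -3.65 ± 0.35 for *COX1* and a median of -4.56 against -0.0015 over all genes. *ATP6* had 37.2 and 147 CPM in control polysome RNA, against 5219.5 and 3819 CPM in control monosome RNA (-5.53 ± 0.63). *ND2* had 1.96 and 10.8 CPM in control polysome RNA, against 255 and 415 CPM in control monosome RNA. *COX3* had 116 and 227 CPM in control polysome RNA, against 4931 and 4128 CPM in control monosome RNA (-4.61 ± 0.38). On the scale of normalised counts used for translation efficiency, *ND2* had the lowest polysome to monosome ratio of all 13808 genes, and the 12 mitochondrial genes were among 88 genes at or below the ratio of *COX1*. No alternative ended these calls among the genes that could be tested.

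The same comparison with total RNA in *xpo-1* RNAi animals gave 12 of 12 genes lower in polysomes (edgeR, with 22.6% of 13344 genes called lower). The log2 fold changes were -4.004 ± 0.18 for *ND1* to -2.24 ± 0.22 for *COX2*, with a median of -3.18 against 0.076 over all genes. *COX2* had 96.3 and 183 CPM in *xpo-1* RNAi polysome RNA, against 585 and 569 CPM in *xpo-1* RNAi total RNA. *ND5* had 16.1 and 18.2 CPM in *xpo-1* RNAi polysome RNA, against 173 and 166 CPM in *xpo-1* RNAi total RNA (-3.50 ± 0.17). In both treatments, then, each of the 12 mRNAs was scarcer in polysome RNA than in total RNA. For *ND4L*, with 3 and 6 counts in *xpo-1* RNAi polysome RNA, this was again set by the filter, which it passed only through total RNA.

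Monosome RNA was where *xpo-1* RNAi and control differed most. Since *xpo-1* RNAi had 1 monosome library, the values are first described without a test. All 12 genes lay below both control libraries, as did 41.2% of 13585 genes, and all 12 were beyond 2-fold lower, as were 16.5% of 13808 genes, with log2 ratios (TMM scaling) of -3.97 for *ND2* to -1.87 for *COX3* and a median of -2.63 against -0.064 over all genes. *ND2* had 16.6 CPM in *xpo-1* RNAi, against 255 and 415 CPM in control. *ND4* had 103 CPM in *xpo-1* RNAi, against 1262 and 1450.2 CPM in control. *ATP6* had 428 CPM in *xpo-1* RNAi, against 5219.5 and 3819 CPM in control. The log2 ratios of these 3 genes were -3.97, -3.37 and -3.07, the lowest of the 12. *CYTB* had 779 CPM in *xpo-1* RNAi, against 7804 and 6807 CPM in control. *COX1* had 1479 CPM in *xpo-1* RNAi, against 9987 and 8477 CPM in control. *COX3* had 978 CPM in *xpo-1* RNAi, against 4931 and 4128 CPM in control. Relative to total RNA of the same treatment, monosome RNA held 0.380 to 1.18 times the CPM of these genes in *xpo-1* RNAi and 2.12 to 6.43 times in control.

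A fit over all 11 libraries, added after the data were seen, takes the spread of the lone library from the other groups and assumes that it varies as they do. It called 11 of the 12 genes lower (edgeR, with 2.74% of 15378 genes called lower), from -3.95 ± 0.75 for *ND2* to -1.85 ± 0.41 for *COX3*. The gene not called was *ND3* (-2.24 ± 0.75, edgeR adjusted p = 0.0894), with 21.2 CPM in *xpo-1* RNAi and 50.2 and 218 CPM in the control libraries, which were far apart. Without control monosome replicate 1, *ND3* was called (edgeR adjusted p = 0.0136) and *COX2* was not (0.0581), and *COX2* was also lost without control monosome replicate 2 (0.0585), which left 10 of 12. In the same libraries germline and oocyte markers summed to 15883 CPM in *xpo-1* RNAi, against 16379 and 16092 CPM in control. Body wall muscle markers summed to 1758 CPM in *xpo-1* RNAi, against 1896 and 2771 CPM in control, and sperm markers to 29.5 CPM in *xpo-1* RNAi, against 110 and 648 CPM in control. The part of these markers in the result was not tested. The *xpo-1* RNAi monosome value has no replicate of its own.

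**Figure D4:**
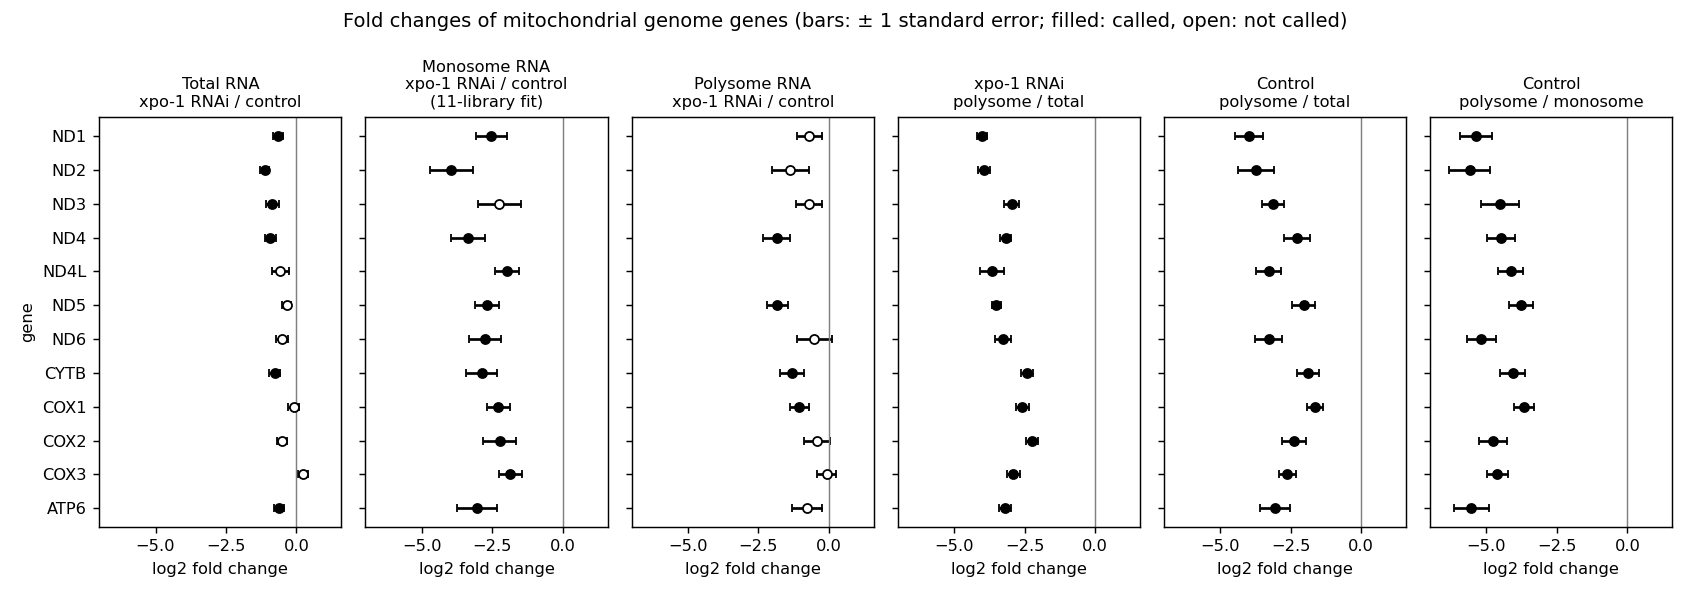
Log2 fold changes of the 12 genes in 6 comparisons, with bars of 1 standard error. Filled points were called (edgeR adjusted p under 0.05 and fold over 1.5) and open points were not. The monosome panel, from the fit over 11 libraries, runs from -3.95 to -1.85, and the total RNA panel from -1.13 to 0.23.

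In polysome RNA, 11 genes could be tested, and *ND4L* had 3 and 6 counts in *xpo-1* RNAi and 6 and 9 counts in control. Of the 11, 4 fell and 0 rose with *xpo-1* RNAi, where 22.4% of 13940 genes were called lower and 15.5% higher (edgeR). *ND4* had 15.5 and 25.5 CPM in *xpo-1* RNAi, against 28.0 and 84.3 CPM in control (-1.85 ± 0.48, edgeR adjusted p = 0.0162). *ND5* had 16.1 and 18.2 CPM in *xpo-1* RNAi, against 27.2 and 64.9 CPM in control (-1.82 ± 0.37, edgeR adjusted p = 0.00572). These were the 2 of the 11 genes whose CPM did not overlap between the groups, as for 25.5% of all genes lower in that way. After TMM scaling *CYTB* and *COX1* did not overlap either, which makes 4 of 11, against 37.4% of all genes. *CYTB* had 169 and 259 CPM in *xpo-1* RNAi, against 212 and 596 CPM in control (-1.31 ± 0.43, edgeR adjusted p = 0.0424). *COX1* had 360 and 510 CPM in *xpo-1* RNAi, against 454 and 908 CPM in control (-1.04 ± 0.32, edgeR adjusted p = 0.0334). *COX3* had 169 and 260 CPM in *xpo-1* RNAi, against 116 and 227 CPM in control (-0.072 ± 0.34, edgeR adjusted p = 0.883). The remaining 6 genes ran from -1.36 (*ND2*) to -0.41 (*COX2*), and their groups overlapped.

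The 4 called genes are the 4 longest of the 12, at 1602 (*COX1*), 1582 (*ND5*), 1303 (*ND4*) and 1118 bases (*CYTB*), although *ND2*, which was not called, had a lower value than *CYTB* and *COX1*. Across the 11 genes, Pearson's r between length and the polysome log2 fold change was -0.70 and Spearman's rho -0.71, a description over genes that share the same 4 libraries, and r ran from -0.79 to -0.48 when single libraries were left out. The values behind these calls also depended on single libraries. The ratio of CPM in replicate 1 to that in replicate 2 had a median over the 12 mitochondrial genes of 0.607 in *xpo-1* RNAi polysome RNA and 0.353 in control polysome RNA. Without control polysome replicate 1 the median log2 fold change over the 11 genes was -1.52, against 0.018 over all genes. Without control polysome replicate 2 this median was 0.27, against 0.025 over all genes. In that fit *ND4* and *ND5* were at -0.90 and -1.12, and *ND1*, *ND2*, *ND6*, *COX2*, *COX3* and *ATP6* had positive values. Without *xpo-1* RNAi polysome replicate 1 the median was -0.59, against -0.032 over all genes. Without *xpo-1* RNAi polysome replicate 2 it was -1.34, against -0.017 over all genes. DESeq2 called 2 genes lower (*ND5* and *COX1*), as did scaling by total counts (*ND4* and *ND5*). Over all genes these settings called 2834 and 2209 of 13940 lower. Sperm markers summed to 18.5 and 21.5 CPM in *xpo-1* RNAi polysome RNA, against 745 and 3640 CPM in control, and the control library with the larger mitochondrial share had the larger sum. This did not hold in control monosome RNA, where sums of 110 and 648 CPM went with shares of 3.64% and 3.10%. In control total RNA sums of 341 and 1499 CPM went with shares of 0.677% each. In polysome RNA germline and oocyte markers summed to 7076 and 7516 CPM in *xpo-1* RNAi, against 5298 and 3372 CPM in control. Their part in the result was not tested.

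Whether the polysome change differed from that in total RNA was tested as an interaction over the 8 libraries of both kinds. By edgeR 0 of the 12 genes and 0% of 14900 genes passed, with 1 of the 12 and 2406 of all genes at an unadjusted p under 0.05. DESeq2 called 1 of the 10 to which it gave an adjusted p, and 665 of 14900 genes. With a replicate block edgeR called 1 of the 12, *ND5*, and 1961 of all genes, but the labels do not establish that same-numbered libraries are pairs. Without the block *ND5* had the most negative difference (-1.43 ± 0.45, edgeR adjusted p = 0.164, unadjusted p = 0.00983). It was followed by *COX1* (-0.90 ± 0.41) and *ND4* (-0.87 ± 0.60), and the other 9 lay between -0.49 and 0.22. *ND5* was the gene that DESeq2 called (adjusted p = 0.0132). Without control polysome replicate 1, *ND5*, *COX1* and *ND4* were at -1.91, -1.30 and -1.44. The median over the 12 genes was then -0.72, against 0.011 over all genes. Without control polysome replicate 2 this median was 0.61, against 0.063 over all genes.

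Translation efficiency, the log2 of the polysome to monosome ratio in *xpo-1* RNAi over that in control, brings both fractions together. The name is the study's, and whether it reflects translation of these 12 mRNAs, which mitochondrial ribosomes translate, was not tested. It was above 0 for all 12 genes, from 0.85 for *ND5* to 2.57 for *ND2*, and beyond 2-fold for 11 of them, as for 8% of 13808 genes. *ND4L*, at 1.08, had 3 to 9 counts in the polysome libraries. It passed the count minimum only through monosome RNA, so its ratios rest on few counts. The median was 1.66, against -0.018 over all genes. For *ND2* the log2 polysome to monosome ratio was -2.91 in *xpo-1* RNAi, against -5.48 in control. For *ATP6* it was -3.17 in *xpo-1* RNAi, against -5.44 in control, and for *COX1* -2.34 in *xpo-1* RNAi, against -3.57 in control. The ratio itself was thus below 0 in both treatments, at -3.44 to -2.34 in *xpo-1* RNAi and -5.48 to -3.57 in control. These ranges run over 12 genes of the same libraries, with 1 monosome library in *xpo-1* RNAi, and are not a spread between replicates. Of the 2 fractions that enter this measure, monosome RNA was lower in *xpo-1* RNAi for all 12 genes (-3.97 to -1.87 on the log2 scale), and in polysome RNA none of the 11 tested was called higher. In the added fit over 11 libraries edgeR called 0 of the 12 genes (adjusted p of 0.0736 to 0.413, 9 with an unadjusted p under 0.05). By edgeR 0.514% of 15378 genes were called higher. DESeq2 called 6 of the 12 and 207 of 15378 genes higher. Without control polysome replicate 2 the median over the 12 genes in the edgeR fit was 2.53, against 1.74.

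The nuclear genes for the same complexes gave values on the other side of 0. Median translation efficiency was -1.85 over 33 nuclear complex I subunits, -1.52 over 7 of complex III, -1.62 over 7 of complex IV and -1.72 over 10 of the ATP synthase, against 1.66 over the 12 mitochondrial genes and -0.018 over all genes. It was beyond 2-fold lower for 31, 5, 7 and 8 of these nuclear genes and for 2176 of all 13808 genes. It was beyond 2-fold higher for 0 of these nuclear genes and for 8% of all genes. In monosome RNA the nuclear complex I median was 0.20, that of complex III 0.25, that of complex IV 0.081 and that of the ATP synthase 0.072. In control animals the nuclear mRNAs leaned to polysomes over monosomes, with 27 of 33 complex I, 3 of 7 complex III, 6 of 7 complex IV and 6 of 10 ATP synthase genes called higher and 0 lower (edgeR, with 14.7% of all genes called higher). Mitochondrial ribosomal proteins, which translate the 12 mRNAs, had a median translation efficiency of -1.13 over 70 genes. The difference between the nuclear and the mitochondrial genes was not tested as such.

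In polysome RNA the nuclear partners fell with *xpo-1* RNAi in 31 of 33 genes of complex I, 6 of 7 of complex III, 7 of 7 of complex IV and 10 of 10 of the ATP synthase, with medians of -1.60, -0.95, -1.48 and -1.51 (edgeR, 22.4% of all genes called lower). *isp-1*, the Rieske iron-sulphur protein of complex III, was at -1.41 ± 0.18 (edgeR adjusted p = 0.000764) and *cyc-1*, cytochrome c1, at -1.18 ± 0.18 (edgeR adjusted p = 0.00145). In total RNA 13 of 33, 3 of 7, 7 of 7 and 7 of 10 genes fell, where 16.9% of all genes were called lower, and *atp-1*, a subunit of the catalytic part of the ATP synthase, was at -1.12 ± 0.22 (edgeR adjusted p = 0.00383). Mitochondrial ribosomal proteins fell in 34 of 70 genes in total RNA and in 65 of 70 in polysome RNA, against 16.9% and 22.4% of all genes. Of 6 nuclear genes for replication and transcription of the mitochondrial genome, 0 of 5 tested were called in total RNA and 2 of 6 fell in polysome RNA. In the added 11-library fit of monosome RNA, 4 of 33 nuclear complex I genes and 0 of 7, 0 of 7 and 0 of 10 genes of complex III, complex IV and the ATP synthase were called higher, and 0 were called lower (5.08% of all genes were called higher).

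**Figure D5:**
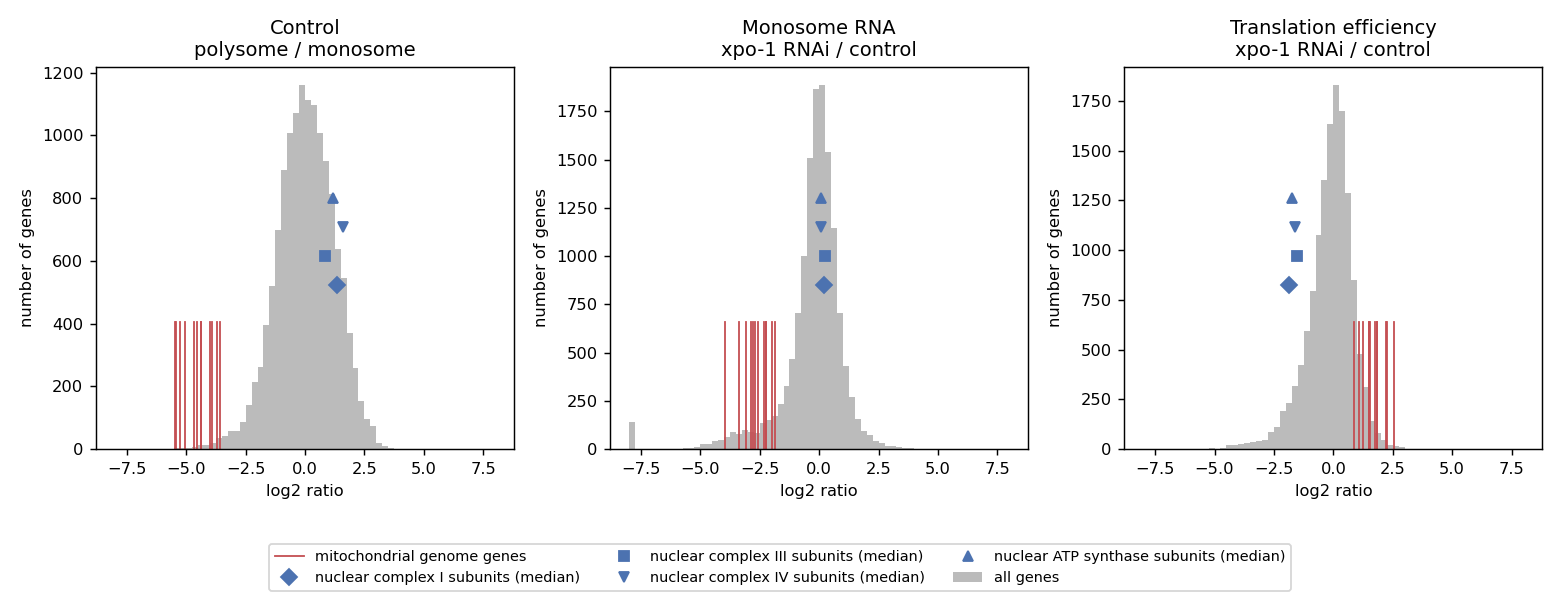
Number of genes by log2 ratio (grey, 13808 genes) for polysome over monosome RNA in control, for monosome RNA in *xpo-1* RNAi over control, and for translation efficiency in *xpo-1* RNAi over control. Red lines are the 12 mitochondrial genes and blue symbols medians of nuclear subunits of the same complexes. The outermost bars gather values beyond the axis, including genes without a count in the *xpo-1* RNAi monosome library. The mitochondrial genes lie at -5.48 to -3.57, -3.97 to -1.87 and 0.85 to 2.57 in the 3 panels.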

How the data were processed

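The authors deposited raw read counts per gene for 11 libraries (whole numbers, 46756 genes). Per the labels and the study's methods, poly(A)-selected RNA was read by Illumina sequencing, and the submitters' processing notes name Trimmomatic, STAR, Subread and featureCounts and the build WBcel235. The strand and overlap settings are not given in the sources used here. The 3 deposited tables of normalized values (11 columns) were not used.

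Counts were tested with edgeR 4.0.16 (quasi-likelihood, TMM, R 4.3.3) in each comparison's own libraries, for genes with at least 10 counts in at least 2 of them, with Benjamini-Hochberg adjustment over all genes tested. A call needed an adjusted p under 0.05 and a fold over 1.5, the thresholds of the study, which used DESeq2. DESeq2 1.42.0 was an alternative, as were other scalings, no count filter, a replicate block and each replicated library left out. The fits that compare 2 groups were checked on simulated data, and the interaction and the 11-library fits were not. Standard errors are the log2 fold change over the square root of F. Translation efficiency followed the study's definition, with median-of-ratios size factors in each fraction and a pseudocount of 1, and these ratios are given without a test. A fit of all 11 libraries, added after the data were seen, tested monosome RNA and translation efficiency, taking the spread of the lone *xpo-1* RNAi monosome library from the other groups. CPM divides by the library total without further scaling.

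Groups and replicate numbers came from the sample labels, and the methods call the replicates biological duplicates. Symbols were taken from a table of identifiers (43798 matched) or, for mitochondrial genes it did not name, from the RefSeq gene sharing most bases with them on MtDNA. All protein-coding members, without exception, are described. The members and the 15 nuclear gene lists were chosen with earlier results of these data known. A count of 0 allows up to 3 counts, at most 0.192 CPM in the shallowest library, and intervals cover counting error only.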

Additional observations from a re-analysis of the deposited data

Results flagged for a closer look

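*COX3* moved in opposite directions in different RNA kinds, with all libraries of a kind on the same side after TMM scaling. In total RNA both *xpo-1* RNAi libraries lay above both control libraries, with a log2 ratio of means of 0.23, as did 34.6% of 13795 genes. In monosome RNA the *xpo-1* RNAi library lay below both control libraries, with a log2 ratio of -1.87, as did 41.2% of 13585 genes. The difference between these 2 effects was not tested, and the total RNA value itself was not called.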

How the results depend on the processing

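In total RNA, 2 of the 12 genes were called lower with scaling by total counts, against 6, and 1 to 8 with each library left out. In polysome RNA, 2 were called lower with scaling by total counts and 2 by DESeq2, against 4. All genes called lower were 2209 and 2834 of 13940, against 3127. With each library left out, the median log2 fold change over the 11 genes was -1.52 to 0.27, against -0.77. In the interaction, DESeq2, no count filter and the replicate block each called 1 gene lower, against 0. Over all genes they called 383 of 14900, 301 of 22741 and 976 of 14900 lower, against 0. Leaving out a library gave a median over the 12 genes of -0.72 to 0.61, against -0.21. For control polysome against total RNA, leaving out a library gave 0 to 12 genes called, against 12. For translation efficiency in the 11-library fit, 9 genes were called higher with scaling by total counts and 6 by DESeq2, against 0. Without a count filter 10 were called. Over all genes these settings called 1940 of 15378, 207 of 15378 and 347 of 24268 higher, against 79 of 15378. Scaling by total counts moved the median of all genes to 0.79, against 0.082. With each library left out, the median over the 12 genes was 1.26 to 2.53, against 1.74. The median log2 ratio in monosome RNA was -2.97 with total counts, against -2.63. The ratio of mitochondrial shares in polysome RNA, 0.700, was 0.497 to 1.18 with each library left out.

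Scaling by total counts moved the median of all genes to 0.30 in total RNA and 0.40 in polysome RNA, against 0.0056 and -0.0084 under TMM. The median of the mitochondrial genes relative to it stayed at -0.60 and -0.78, against -0.60 and -0.76. Signs changed under this scaling for *COX1* in total RNA (0.20) and *COX3* in polysome RNA (0.32). With each library left out, polysome values ran from -1.36 to 0.30 (*ND1*), -2.20 to 0.27 (*ND2*), -1.34 to 0.37 (*ND6*), -1.05 to 0.47 (*COX2*), -0.55 to 0.44 (*COX3*) and -1.52 to 0.47 (*ATP6*), the positive ends without control polysome replicate 2. Without *xpo-1* RNAi polysome replicate 1, *ND6* was at 0.033, *COX2* at 0.031 and *COX3* at 0.26. The interaction of *ND4* ran from -1.44 to 0.093. The cause of these changes was not tested.

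Total and gradient RNA were taken from the same supernatant per the methods, but the labels do not say that a replicate number marks a supernatant. Deviations of same-numbered libraries correlated at -0.018 (*xpo-1* RNAi and control, total RNA), 0.072 (polysome RNA), 0.78 (control polysome and total), 0.52 (control polysome and monosome) and -0.33 (*xpo-1* RNAi polysome and total). With the replicate block, 6 genes were called lower in total RNA, 5 in polysome RNA, 1 in the interaction and 12 in each of the other comparisons between fractions. The interaction gene was *ND5* (-1.32, edgeR adjusted p = 6.13e-05), and over all genes the block called 1961 in the interaction against 0, 6488 in control polysome against total RNA, in place of 1701, and 8228 in control polysome against monosome RNA, in place of 4793. Leaving mitochondrial rRNA genes out of the share was not run, since they were not among the genes analysed here. *ND4L*, with 3 to 9 counts in polysome libraries, is at the limit of this depth.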

Other observations

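Further nuclear lists were compared between *xpo-1* RNAi and control. Over all genes, 12% were called higher and 16.9% lower in total RNA, and 15.5% higher and 22.4% lower in polysome RNA (edgeR), so that 1 or 2 called genes in lists of this size are near the share of all genes. Of 5 genes for mitochondrial RNA processing and stability, 1 rose in total RNA, *hoe-1* (0.78 ± 0.19, edgeR adjusted p = 0.0117), which encodes the tRNA 3' end processing enzyme RNase Z, and 0 were called in polysome RNA. Of 5 mitochondrial translation factors, 1 fell in both, *tufm-1*, the mitochondrial elongation factor Tu, at -0.60 ± 0.16 in total RNA and -0.81 ± 0.20 in polysome RNA (edgeR adjusted p = 0.0194 and 0.0121). Of 11 genes of the mitochondrial unfolded protein response, 2 fell in total RNA, the chaperone *hsp-60* (-2.36 ± 0.18, edgeR adjusted p = 6.91e-05) and the protease *spg-7* (-0.72 ± 0.17, edgeR adjusted p = 0.00907). In polysome RNA 1 of these 11 rose, the protease *ymel-1* (1.27 ± 0.22, edgeR adjusted p = 0.00289), and 2 fell, *hsp-60* (-1.60 ± 0.20, edgeR adjusted p = 0.000743) and *ubl-5* (-1.14 ± 0.21, edgeR adjusted p = 0.00367). Of the 5 subunits of complex II, which is encoded in the nucleus alone, 1 fell in total RNA and 3 in polysome RNA, *mev-1* among them (-0.74 ± 0.18 and -1.06 ± 0.19).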
